A study of Mus musculus with 3 samples.

Results

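The Foxc2-only intergenic peaks of mouse glomeruli were 368 of the 2878 Foxc2 ChIP-seq peaks on chromosomes 1 to 19, X and Y (12.8%), and 368 of the 2453 Foxc2 peaks that no Foxc1 peak overlapped (15%). Each was called with the Foxc2 antibody, shared not 1 bp with a Foxc1 peak, and had its summit outside every protein-coding RefSeq gene span and more than 1 kb from the nearest end of such a gene. "Intergenic" therefore refers to protein-coding genes only, and 96 of the summits (26.1%) lay inside a non-coding gene. Both peak lists and the gene positions chose these peaks, so the calls, the absence of Foxc1 and the distance beyond 1 kb are descriptions here and carry no test. The study mapped both factors in the filtering units of the kidney. Its Foxc2 library used antibody AF6989 (R&D Systems) and its Foxc1 library used antibody D8A6 (CST), both on glomeruli of C57BL/6 mice of 8 weeks collected with magnetic beads, and an input DNA library of the same tissue has no peak list and was not analysed here. There was 1 library per antibody, the labels do not say how many animals went into it, and isolated glomeruli hold podocytes, endothelial and mesangial cells together, so a peak cannot be assigned to a cell type. The ranges given after shares are 95% intervals by the exact Clopper-Pearson method. They cover counting error and not the spread between animals.

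Foxc1 and Foxc2 are closely related forkhead transcription factors with nearly the same DNA-binding domain. In the glomerulus Foxc2 is known as a regulator of podocytes, the cells whose foot processes and slit diaphragms form the last layer of the filter. Binding far from genes is commonly studied as binding at candidate enhancers, and some of it falls at the starts of long non-coding RNAs (lncRNAs) or of the long primary transcripts from which microRNAs (miRNAs) are cut.

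Sequences were at hand for 2 kinds of site near these peaks, lncRNA promoters and miRNAs. In all, 19 of the 368 peaks overlapped 22 RefSeq lncRNA promoter windows of 300 bp (250 bases before to 50 after a start, 20 genes), and 12 of the 19 had their summit inside a window. Shown first are the windows under the 5 peaks of highest fold (where a peak covered several windows, the one with its summit nearest to the start), then those of Chaserr, Malat1 and Mir22hg, which were picked after their values were seen because these lncRNAs are well known. They are printed 5′ to 3′ on the gene's strand, from RefSeq GRCm38.p6, with capitals on matches, on either strand, to the letters of 4 motifs. These are the forkhead core TAAACA with its complement TGTTTA, the GC box GGGCGG with its complement CCGCCC, the palindromic cAMP response element TGACGTCA and the palindrome CGCG of CpG-rich DNA. Where matches overlap or touch, the capitals run together.
Gm36254 (chr2:172863544-172863843, - strand): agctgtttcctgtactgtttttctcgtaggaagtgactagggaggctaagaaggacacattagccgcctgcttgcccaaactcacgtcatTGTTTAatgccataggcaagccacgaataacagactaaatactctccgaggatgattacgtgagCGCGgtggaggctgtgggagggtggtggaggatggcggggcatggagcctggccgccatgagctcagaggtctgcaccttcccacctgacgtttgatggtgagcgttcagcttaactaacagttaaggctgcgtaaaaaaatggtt
Gm31125 (chr4:106840112-106840411, - strand): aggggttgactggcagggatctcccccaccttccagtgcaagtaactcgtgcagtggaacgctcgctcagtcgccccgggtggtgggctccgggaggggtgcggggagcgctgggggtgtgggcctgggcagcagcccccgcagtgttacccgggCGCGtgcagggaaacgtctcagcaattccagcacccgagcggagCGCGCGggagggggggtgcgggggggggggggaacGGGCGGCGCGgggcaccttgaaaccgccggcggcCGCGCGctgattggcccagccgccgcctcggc
1700067G17Rik (chr1:89015863-89016162, + strand): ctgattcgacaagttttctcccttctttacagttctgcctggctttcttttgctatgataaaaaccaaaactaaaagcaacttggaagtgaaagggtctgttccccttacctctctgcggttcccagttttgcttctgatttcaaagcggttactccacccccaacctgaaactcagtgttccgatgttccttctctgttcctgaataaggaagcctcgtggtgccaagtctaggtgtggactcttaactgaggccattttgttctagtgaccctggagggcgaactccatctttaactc
Gm14321 (chr2:167777241-167777540, + strand): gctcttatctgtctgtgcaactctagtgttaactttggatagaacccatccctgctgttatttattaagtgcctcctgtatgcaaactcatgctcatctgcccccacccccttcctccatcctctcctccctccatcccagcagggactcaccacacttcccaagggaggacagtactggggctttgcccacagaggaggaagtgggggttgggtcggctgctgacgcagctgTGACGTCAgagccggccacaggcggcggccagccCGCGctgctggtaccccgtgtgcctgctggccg
Gm34507 (chr17:4908072-4908371, + strand): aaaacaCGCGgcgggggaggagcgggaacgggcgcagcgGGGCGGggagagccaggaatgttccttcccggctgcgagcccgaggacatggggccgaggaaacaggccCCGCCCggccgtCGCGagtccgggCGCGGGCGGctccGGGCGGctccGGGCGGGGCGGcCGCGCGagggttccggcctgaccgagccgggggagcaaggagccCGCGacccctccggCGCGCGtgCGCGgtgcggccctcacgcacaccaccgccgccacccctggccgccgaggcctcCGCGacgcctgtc
Chaserr (chr7:73558346-73558645, - strand): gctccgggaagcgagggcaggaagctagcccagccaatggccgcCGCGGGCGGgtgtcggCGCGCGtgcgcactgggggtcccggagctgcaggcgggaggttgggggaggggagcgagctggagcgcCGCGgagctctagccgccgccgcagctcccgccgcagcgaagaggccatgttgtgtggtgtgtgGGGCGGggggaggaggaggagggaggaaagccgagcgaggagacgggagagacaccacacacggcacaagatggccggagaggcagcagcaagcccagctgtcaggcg
Malat1 (chr19:5802623-5802922, - strand): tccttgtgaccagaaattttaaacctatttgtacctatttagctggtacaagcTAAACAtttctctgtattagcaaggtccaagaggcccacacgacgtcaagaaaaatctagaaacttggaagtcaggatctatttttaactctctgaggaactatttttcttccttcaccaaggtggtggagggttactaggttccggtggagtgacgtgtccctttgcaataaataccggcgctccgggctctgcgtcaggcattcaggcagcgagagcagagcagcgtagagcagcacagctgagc
Mir22hg (chr11:75461289-75461588, + strand): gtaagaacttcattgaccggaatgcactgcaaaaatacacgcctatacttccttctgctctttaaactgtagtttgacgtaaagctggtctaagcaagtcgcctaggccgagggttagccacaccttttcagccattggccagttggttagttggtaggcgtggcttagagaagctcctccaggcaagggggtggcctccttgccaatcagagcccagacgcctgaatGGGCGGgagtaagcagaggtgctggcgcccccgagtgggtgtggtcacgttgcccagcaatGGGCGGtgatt

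Of these 8 windows, those of Gm36254 and Malat1 held the forkhead core TAAACA or its complement. The peak summit lay 66 bp upstream of the start of Gm31125, 35 bp upstream for Gm14321, 140 bp upstream for Gm34507, 138 bp upstream for Malat1 and 30 bp upstream for Mir22hg, all inside the window. Outside it were the summits at Chaserr, a lncRNA beside Chd2, 113 bp downstream, at Gm36254, beside Bmp7, 286 bp downstream, and at 1700067G17Rik, 558 bp upstream. Fold enrichment at the summit, the authors' ratio to the local background of the peak caller, was 5.67 at Gm36254, 5.50 at Gm31125, 4.81 at 1700067G17Rik, 4.67 at Gm14321, 4.5 at Gm34507, 4.30 at Chaserr, 3.78 at Malat1 and 3.09 at Mir22hg. The Gm14321 window faces Gm32287, a lncRNA on the other strand of the same locus, whose start lay under the same peak.

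The 22 windows were rich in GC and CpG. TAAACA or its complement was present in 4 of 22 windows (18.2%), against 17.0% of all 11588 lncRNA windows of the same length, and the longer GTAAACA (complement TGTTTAC), which contains TAAACA, was in 1 of 22 (4.55%), against 4.83%. GGGCGG was in 10 of 22 windows (45.5%), against 16.3% of lncRNA windows and 35.7% of all 32851 promoter windows. CGCG was in 12 of 22 (54.5%), against 17.5% and 38.0%. TGACGTCA was in 4 of 22 (18.2%), against 0.98% and 1.79%, but 3 of the 4 windows belonged to the Gm14321 and Gm32287 locus and the other was 9430091E24Rik. CCAAT (or ATTGG) was in 7 of 22 (31.8%), against 36.0%, and TATAAA (or TTTATA) in 0 of 22, against 15.5%. The median window had 13.5 CpG and 60.5% GC, against 4 CpG and 48.3% GC over all lncRNA windows. These motifs were chosen with the windows in view, windows of one locus share bases, and a match is a description of letters and not of a bound site.

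Mature miRNAs are shown for 6 of the miRNA loci with a Foxc2-only intergenic peak within 10 kb, picked after the values were seen because these miRNAs are well known, again from RefSeq and 5′ to 3′, with the seed (bases 2 to 8) in capitals and grouped by seed. The let-7 trio shares GAGGUAG and the pair from the Mir17 cluster shares AAAGUGC, and the other seeds shown are each different.
mmu-miR-30a-5p (chr1:23272274-23272295, + strand): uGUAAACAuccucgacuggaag
mmu-let-7a-5p (chr13:48538239-48538260, - strand): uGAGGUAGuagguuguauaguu
mmu-let-7f-5p (chr13:48537889-48537910, - strand): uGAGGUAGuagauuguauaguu
mmu-let-7d-5p (chr13:48536078-48536099, - strand): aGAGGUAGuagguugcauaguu
mmu-miR-17-5p (chr14:115043684-115043706, + strand): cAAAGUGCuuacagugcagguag
mmu-miR-20a-5p (chr14:115044183-115044205, + strand): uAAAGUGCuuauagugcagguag
mmu-miR-23a-3p (chr8:84208563-84208583, + strand): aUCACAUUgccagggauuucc
mmu-miR-27a-3p (chr8:84208727-84208747, + strand): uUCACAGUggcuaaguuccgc
mmu-miR-24-3p (chr8:84208875-84208896, + strand): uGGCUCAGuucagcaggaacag
mmu-miR-193a-3p (chr11:79712009-79712030, + strand): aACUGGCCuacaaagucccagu
mmu-miR-22-3p (chr11:75463772-75463793, + strand): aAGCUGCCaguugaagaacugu

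The Foxc2-only intergenic peaks had a median fold enrichment of 4.27 (quartiles 3.65 and 5.16, range 1.73 to 10.3) and a median width of 298 bp. Medians in the same list were 4.13 for the 694 Foxc2-only peaks in gene bodies, 3.78 for the 1391 Foxc2-only peaks at gene ends and 4.99 for the 134 Foxc2 intergenic peaks that a Foxc1 peak overlapped. A fold of 5 or more was reached by 100 of 368 peaks (27.2%, 22.7 to 32.0%), against 19.5% in gene bodies, 8.77% at gene ends and 49.3% of the overlapped intergenic peaks, where 18.1% of all Foxc2 peaks reached it. Fold values decide whether a peak is called and so are part of the choice of these peaks.

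**Figure D1:**
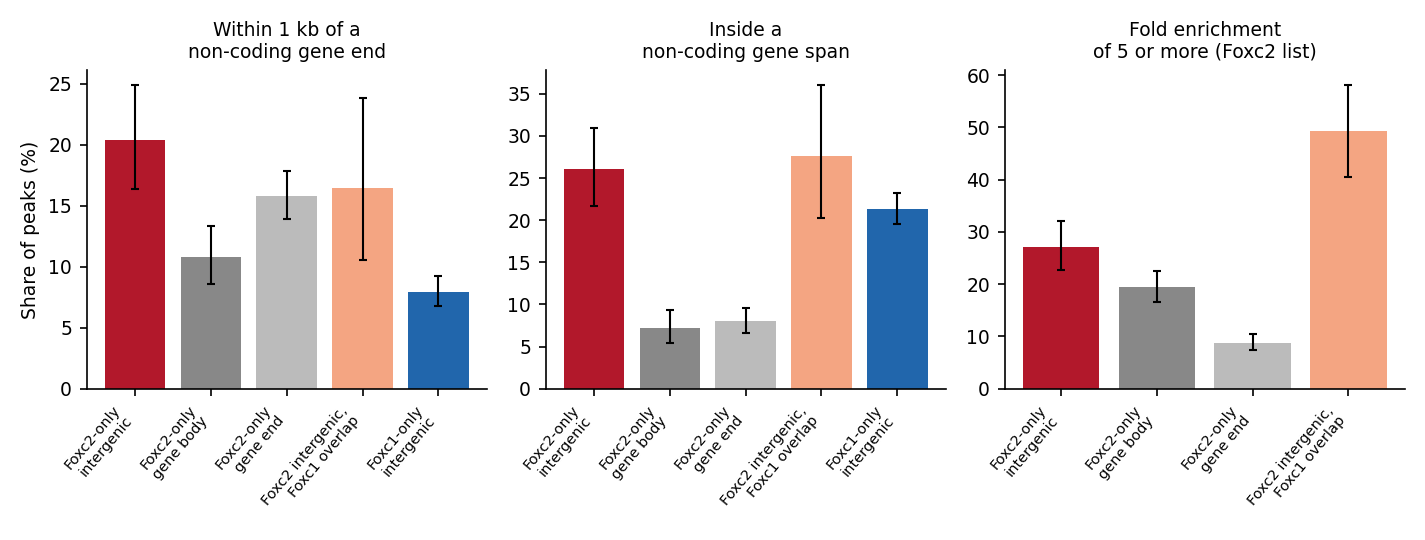
Share of peaks (%) within 1 kb of a non-coding gene end (left), inside a non-coding gene span (middle) and with a fold of 5 or more (right), by peak class; bars are shares of 1 library and lines are exact 95% intervals for counting error. Foxc2-only intergenic peaks, at the left of each panel, stood at 20.4%, 26.1% and 27.2%; the Foxc1 list is left out of the fold panel because folds are not compared between lists.

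The peaks of highest fold lay from 2.58 kb to 1388 kb from the nearest gene. The highest was 624 kb from Cdh11, which encodes a cadherin of mesenchymal cells, with a fold of 10.3 (chr8:103409023-103409464, rank 17 of 2878 Foxc2 peaks by fold). The peak at Foxd2, a forkhead gene, followed with a fold of 9.13 at 36.0 kb (chr4:114869950-114870480). Peaks 92.6 kb and 69.8 kb from Trib2, a pseudokinase gene, had folds of 9.11 and 9.0, and both summits were inside the lncRNA gene Gm40287. Then came Lrrc74a at 8.94 (32.4 kb away), Podxl at 8.60 (64.2 kb), Ptbp3 at 7.91 (9.37 kb) and Nrp2, a semaphorin and VEGF co-receptor gene, also at 7.91 (42.3 kb).

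Further down were Apba1 with a fold of 7.89, 1700021F07Rik with 7.57, Gm40892 and Wipf3 with 7.39 each, and Sox4, a Sox family transcription factor gene, with 7.38 at 191 kb. A fold of 7.05 was shared by peaks nearest to Cd83, Lpin2, Gm826, Gm46353 and Cant1. Just after these came Jun, the AP-1 subunit gene, whose peak had a fold of 7.0 at 109 kb and lay inside the lncRNA gene Junos.

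The median summit lay 26.5 kb from the nearest protein-coding gene end (quartiles 7.39 and 74.6 kb), against 35.7 kb for Foxc2 intergenic peaks overlapped by Foxc1 and 32.9 kb for the 1861 Foxc1-only intergenic peaks. By distance, 73 summits were 1 to 5 kb away, 35 were 5 to 10 kb, 133 were 10 to 50 kb, 56 were 50 to 100 kb, 59 were 100 to 500 kb and 12 were farther. Thus 241 of 368 (65.5%, 60.4 to 70.3%) were within 50 kb of a gene end, against 61.9% of the overlapped intergenic and 59.9% of the Foxc1-only intergenic peaks (57.6 to 62.1%), and these intervals overlapped. Where the strand of the nearest gene was known, 146 of 265 summits (55.1%) were upstream of it and 119 downstream. Median fold was 3.95 for the 108 peaks up to 10 kb away, 4.17 from 10 to 50 kb, 4.49 from 50 to 100 kb and 4.33 beyond 100 kb. A fold of 5 or more was reached by 22.2% of peaks up to 10 kb away and by 29.6% beyond 100 kb.

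**Figure D2:**
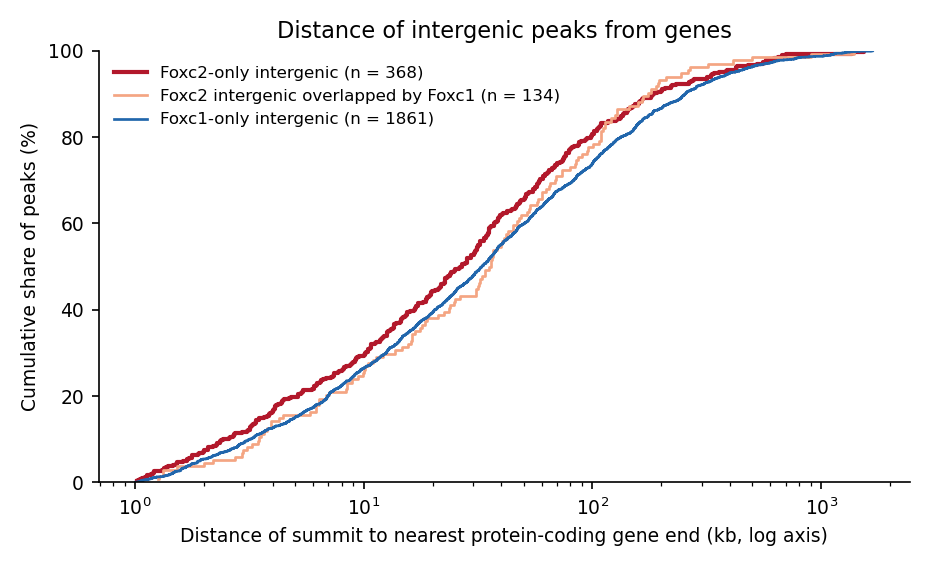
Cumulative share of intergenic peaks (%) by distance of the summit to the nearest protein-coding gene end (kb, log axis), with 1 line per peak class. The curve of the 368 Foxc2-only intergenic peaks starts at the 1 kb limit and reaches 65.5% at 50 kb, above both other curves there by a few percentage points.

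The 8 farthest peaks were 590 to 1538 kb from a protein-coding gene, though not always from non-coding ones. The farthest was 1538 kb from Celf4, with a fold of 5.33, and 2 peaks were 1388 kb and 1363 kb from Gm40892, with folds of 7.39 and 4.99. After these came Gm826 at 704 kb, Zfp608 at 671 kb, Rpia at 649 kb, Cdh11 at 624 kb and Galc at 590 kb. An annotated non-coding gene lay 13.6 kb from the Rpia peak (a pseudogene), 17.8 kb from the Zfp608 peak and 61.7 kb from the Cdh11 peak (both lncRNAs). The peaks nearest to Rpia numbered 3, and they were also the only 3 Foxc2 peaks within 50 kb of an annotated immunoglobulin or receptor gene segment.

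At the 1 kb limit the peaks just inside included those of 9030025P20Rik (1.02 kb), Tmem44 (1.03 kb), Zswim6 (1.08 kb) and Bhlhe40 (1.11 kb), with folds of 3.26 to 5.67. Just outside were Ap3m2 and Cgnl1 (both 0.997 kb), Mex3b (0.963 kb), Bmpr2 (0.952 kb) and Zcchc3 (0.881 kb), with folds of 2.94 to 5.16. On the Foxc1 side, the peaks near Borcs6, Irf2bpl, Slc47a1, Rab11fip4 and Skor1 missed a Foxc1 peak by 1, 9, 94, 101 and 165 bp, whereas those near Ptpdc1, Mpst, Eif3m, Pex26 and Abt1 overlapped one by 6, 59, 87, 95 and 115 bp and were left out. The folds inside and outside each limit overlapped.

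The 368 peaks had 294 different nearest protein-coding genes, 244 of them with 1 peak, 50 with 2 or more and 16 with 3 or more. The list of genes nearest to several peaks was led by genes beside a cluster on chromosome 6 (Gm40363 with 8 and Pdia4 with 4), Irf2bp2 with 5, and then genes with 3 each, among them Foxd2, Trib2, Podxl, Hes1, Tcf21, Arf6 and Foxl1.

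Of the podocyte genes listed, a larger share had such a peak nearby than of protein-coding genes in general. Of 36 podocyte marker genes, 8 (22.2%, 10.1 to 39.2%) had a Foxc2-only intergenic summit within 50 kb of the gene, against 2.21% of all 21887 protein-coding genes, and 10 had one within 100 kb, against 4.11%. The 8 genes held 11 different peaks. Gene size and spacing were not matched in this background, and their part in the difference was not tested. All the gene lists were chosen with earlier results of these data known. Shares of listed genes set beside this background are therefore descriptions and carry no test.

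Vegfa, the growth factor that podocytes send to the glomerular endothelium, had 2 peaks, with folds of 6.36 at 19.9 kb and 4.30 at 17.3 kb. Bmp7, a ligand needed for nephron formation, had peaks with folds of 6.02 at 3.47 kb and 5.67 at 4.71 kb. In each of the Vegfa and Bmp7 pairs the peaks were under 3 kb apart. The nearest Foxc1 peak was 3.28 and 5.87 kb from the Vegfa peaks and 136 and 137 kb from the Bmp7 peaks.

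Magi2, a scaffold of the slit diaphragm, had 1 peak of fold 6.83 at 38.3 kb. Ptpro, a receptor phosphatase of foot processes, had 1 of fold 5.15 at 4.82 kb. Single peaks with lower folds were found at Ptgds (4.0 at 13.7 kb, a peak nearest to Paxx) and Nes (2.75 at 2.43 kb). Podxl, which encodes the sialomucin podocalyxin on the podocyte surface, had 3 peaks between 57.1 and 66.2 kb away with folds of 3.97, 8.60 and 5.67, so it counted only at 100 kb. The nearest Foxc1 peak was 14.4, 7.25 and 5.32 kb from these 3 Podxl peaks. It was 9.08 kb from the Magi2 peak, 9.95 kb from the Nes peak, 63.8 kb from the Ptpro peak and 224 kb from the Ptgds peak.

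**Figure D3:**
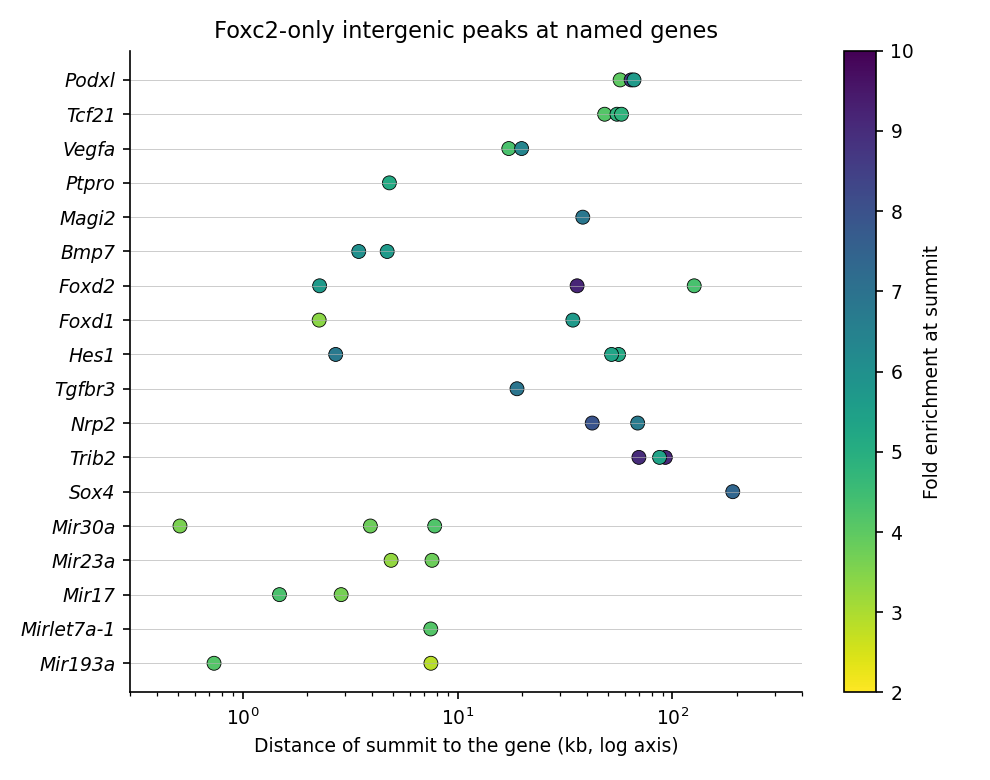
Each point is a Foxc2-only intergenic peak at a named gene, placed by the distance of its summit to the gene (kb, log axis) and coloured by fold enrichment; rows for protein-coding genes show peaks nearest to that gene and the 5 miRNA rows show peaks within 10 kb of that hairpin. Podxl, Tcf21, Nrp2, Trib2 and Sox4 had their peaks more than 40 kb away, whereas those of Ptpro and Bmp7 lay within 8 kb. Peaks of the 5 miRNAs plotted also lay within 8 kb, but their rows could hold none beyond 10 kb.

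Transcription factor genes of the podocyte and other forkhead genes were also among the neighbours. Of 24 podocyte transcription factor genes, 4 had a peak within 50 kb (16.7%, 4.74 to 37.4%, against 2.21%), and they were Tcf21, Foxc2, Foxd1 and Foxd2. All 4 are counted in another list too, Tcf21 among the podocyte markers and the others among the forkhead genes, so these lists are not independent. Tcf21, a basic helix-loop-helix factor gene of podocyte development, had 3 peaks in a row at 48.4, 55.2 and 57.9 kb with folds of 4.13, 4.81 and 4.81. These were the only Foxc2 peaks within 100 kb of Tcf21, and the nearest Foxc1 peak was at least 247 kb from each. Of the 44 forkhead genes, 8 had a peak within 50 kb (18.2%, 8.19 to 32.7%), but these rested on 7 different peaks because neighbouring genes share them.

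The peak at chr8:121125437-121125746, with a fold of 3.61, lay 6.70 kb from Foxc2 itself, 2.09 kb from Foxl1 and 37.4 kb from Foxf1. A peak 2.28 kb from Foxd2 (fold 5.67) was also 13.3 kb from Foxe3. Foxd1, a gene of the kidney stroma and of podocytes, had peaks at 2.27 kb and 34.4 kb with folds of 3.38 and 5.67, and each had a Foxc1 peak within 2 kb that did not overlap it. Foxj2 (fold 3.90 at 8.85 kb) and Foxk1 (fold 3.33 at 33.7 kb) had 1 each. The nearest Foxc1 peak was 1.79 kb from the peak by Foxc2 and Foxl1 and 67.2 kb from the Foxd2 peak. It was 0.274 kb from the Foxj2 peak and 37.5 kb from the Foxk1 peak.

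Among signalling lists, 3 of 33 TGF-beta and BMP genes had a peak within 50 kb (9.09%, 1.92 to 24.3%, an interval that includes the 2.21% of all genes): Tgfbr3, the co-receptor betaglycan, with a fold of 6.88 at 18.9 kb, Bmp7, and the inhibitory Smad6 with a fold of 3.95 at 1.13 kb. In the Notch list it was 1 of 23 (4.35%, 0.11 to 21.9%, likewise including 2.21%), Hes1, a Notch target gene encoding a repressor, with a fold of 6.78 at 2.71 kb. Hes1 had further peaks at 52.1 and 56.2 kb with folds of 5.33 and 5.16. In the Hippo list 0 of 25 genes had one (upper limit of the interval 13.7%).

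For the steroid and circadian list the count was 4 of 26 (15.4%, 4.36 to 34.9%, against 2.21%): Klf9 (fold 5.17 at 5.37 kb), Nr1d1 (3.77 at 14 kb), Per1 (3.44 at 31.5 kb) and Fkbp5 (2.60 at 37.0 kb). The list was chosen with earlier results of these data known, so its share beside 2.21% is a description and carries no test. The peaks counted for Nr1d1, Per1 and Fkbp5 were nearest to other genes, Msl1, Borcs6 and Armc12. The Per1 peak is the one near Borcs6 that missed a Foxc1 peak by 1 bp. Of 37 actin and focal adhesion genes 4 had one (10.8%, 3.03 to 25.4%, against 2.21%), at Actn1, Parva, Myh9 and Inf2, with folds of 3.61 to 4.0. The distances were 12 to 44.6 kb, and the peaks counted for Actn1 and Myh9 were nearest to other genes, Gm52006 and Txn2. Inf2 encodes a formin, Actn1 and Parva encode adhesion proteins and Myh9 a non-muscle myosin chain.

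Lists of other glomerular and kidney cells had few. Of 32 glomerular endothelium genes 1 had a peak (Nrp2), of 28 mesangium and pericyte genes 1 (Tcf21, which is also in the podocyte lists), of 32 proximal tubule genes 1 (Spp2, fold 3.95 at 3.39 kb), of 26 immune genes 2 (Cd79a and Cd4, folds 4.47 and 3.14) and of 29 housekeeping genes 1 (Eef1a1, fold 4.13 at 7.38 kb). Of 60 homeobox, T-box and Sox genes 1 had one (Hoxd1, fold 3.88 at 13.3 kb). The peaks counted for Cd79a, Cd4 and Hoxd1 were nearest to other genes, Lypd4, Ptms and Hoxd3. With 1 or 2 genes each, the intervals of these lists, such as 0.0791 to 16.2% for the proximal tubule, included the background of 2.21%. The highest share was 7.69%, in the immune list. Except for the homeobox, T-box and Sox list (upper limit 8.94%), these intervals also overlapped that of the podocyte markers, 10.1 to 39.2%. Over all 14 lists 33 of 430 genes had a peak within 50 kb, through 35 different peaks, against 483 of all 21887 protein-coding genes (2.21%).

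A larger share of these peaks than of gene body or Foxc1-only intergenic peaks lay at the end of a non-coding gene. The summit was within 1 kb of a non-coding gene end for 75 of 368 peaks (20.4%, 16.4 to 24.9%), against 10.8% of the Foxc2-only gene body peaks (8.60 to 13.4%), 15.8% of gene end peaks (13.9 to 17.8%), 16.4% of the overlapped intergenic peaks (10.6 to 23.8%) and 7.95% of the Foxc1-only intergenic peaks (6.76 to 9.28%). Over all Foxc2 peaks the share was 14.1%, and the intervals for gene end and overlapped intergenic peaks overlapped that of the Foxc2-only intergenic peaks. Among those of fold 5 or more the share was 12 of 100 (12%, 6.36 to 20%), against 3.70% of gene body peaks, 22.1% of gene end peaks and 9.39% of all Foxc2 peaks of that fold. The nearest ends belonged to lncRNAs for 62 peaks, to tRNAs for 6, to miRNAs for 3, to pseudogenes for 3 and to a transcribed pseudogene for 1.

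For lncRNA starts the picture was closer to the background: 40 of 368 peaks (10.9%, 7.88 to 14.5%) were within 1 kb of one, against 8.9% of all Foxc2 peaks, with 20 upstream and 20 downstream of the start and 18 within 300 bp. Overlap with a lncRNA promoter window, in 19 peaks (5.16%), was near the 5.77% of all Foxc2 peaks. The share inside a non-coding span, 26.1% (21.7 to 30.9%), was above the 7.20% of gene body peaks and the 7.98% of gene end peaks and close to the 27.6% of overlapped intergenic and the 21.3% of Foxc1-only intergenic peaks, with 11% over all Foxc2 peaks. In 93 of the 96 cases the span was a lncRNA. The remaining 232 peaks (63.0%) lay in no annotated non-coding span and more than 1 kb from any end.

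The strongest peaks at non-coding ends were beside the lncRNAs Gm35598 near Cant1 (fold 7.05), Gm32998 near Hes1 (6.78, with the summit 68 bp from the end), Gm36254 near Bmp7 (6.02), Gm41642 near Plekhh2 (5.67), 1700055K11Rik also near Bmp7 (5.67) and Gm34590 near Zfp706 (5.67). The next 4 were BB014433 near Myom2 and Gm31125 near Acot11 (both 5.50), Gm41061 near Map3k1 (5.33) and Gm38601 near Cad (5.17). Among well-known lncRNAs, picked after the values were seen, Malat1 had 2 peaks, at 138 and 1060 bp with folds of 3.78 and 4.17, and its neighbour Neat1, the scaffold of paraspeckles, had 1 at 62 bp with a fold of 4.30. All 3 had a Foxc1 peak between 0.883 and 2.32 kb away that did not overlap them.

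A miRNA lay within 10 kb of 18 of the 368 peaks (4.89%, 2.92 to 7.62%), against 3.23% of all Foxc2 peaks, 2.59% of gene body, 3.38% of gene end and 2.99% of overlapped intergenic peaks, and 0.752% of Foxc1-only intergenic peaks (0.412 to 1.26%). The interval included the share over all Foxc2 peaks. Where strand was known, 14 of 16 summits were upstream of the miRNA, against 49 of 69 for the other Foxc2 peaks within 10 kb of one. The distance of 10 kb was chosen after the data were seen, and nearby peaks share a miRNA.

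Mir30a, of a miRNA family abundant in podocytes, had 3 peaks in a row upstream of its hairpin, at 7.83, 3.93 and 0.511 kb with folds of 4.22, 3.78 and 3.61. The nearest Foxc1 peak was between 1340 and 1347 kb from each. The Mir17 cluster, which also codes for miR-18a, miR-19a, miR-20a, miR-19b and miR-92a, had 2 upstream, at 2.87 and 1.48 kb with folds of 3.67 and 4.30, again with the nearest Foxc1 peak 952 and 953 kb away. Both loci are far from protein-coding genes, at 94.7 to 102 kb from Ogfrl1 for Mir30a and 50 and 51.4 kb from Gpc5 for the Mir17 cluster.

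The cluster of Mir23a, Mir27a and Mir24-2 had 2 upstream of Mir23a, at 7.61 and 4.91 kb with folds of 3.78 and 3.29. Mir193a had 2 at 7.52 and 0.736 kb with folds of 2.86 and 4.13, Mir22 had 1 at 2.21 kb (the peak at the start of its host lncRNA Mir22hg), and the let-7a-1, let-7f-1 and let-7d cluster had 1 at 7.51 kb from let-7a-1 with a fold of 4.13. Next to this last peak, 0.577 kb away, lay a Foxc1 peak, and it was this locus near Ptpdc1 that also held the Foxc2 peak left out for an overlap of 6 bp. On chromosome 18 a pair lay 7.96 and 9.82 kb from Mir145a, a miRNA of smooth muscle, with folds of 4.64 and 6.33. Mir760, Mir7671, Mir3089, Mir6935 and Mir7228 had 1 each, with folds of 2.70 to 4.99.

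A tRNA gene lay within 1 kb of 8 peaks (2.17%, 0.943 to 4.24%), against 0.521% of all Foxc2 peaks, 1 of 694 gene body peaks, 5 of 1391 gene end peaks, 1 of 134 overlapped intergenic peaks (0.746%, 0.0189 to 4.09%, an interval that includes 2.17%) and 8 of 1861 Foxc1-only intergenic peaks. Their folds were all low, from 2.70 to 3.61, and 5 of the 8 were on chromosome 11. For 6 of them the tRNA gene was the nearest non-coding end. This category was also picked after the data were seen. The nearest of these summits were 9, 16 and 25 bp from the tRNA gene, and 3 of the 8 peaks had a Foxc1 peak within 101 bp.

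Beyond direct overlap, Foxc1 peaks were about as near to these peaks as to other Foxc2-only peaks. A Foxc1 peak lay within 10 kb of 76 of 368 (20.7%, 16.6 to 25.2%), against 22.9% of gene body and 15.9% of gene end peaks, where 18.6% of all Foxc2-only peaks had one. It lay within 1 kb for 20 of them (5.43%), and the median gap was 52.0 kb. The absence of an overlapping Foxc1 peak means that none was called, and read depth is unknown for both libraries.

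Of the 368 peaks, 74 (20.1%, 16.1 to 24.6%) lay in 29 clusters of 2 or more whose neighbours were within 10 kb. Stitched in the same way, 18.3% of all Foxc2-only peaks were in clusters of Foxc2-only peaks. Clusters of 3 were found at Podxl, Tcf21, Mir30a, between Mir181c and Mir23a (nearest genes Nanos3 and Zswim4), beside Csnk1a1 and the lncRNA Bvht on chromosome 18, and at Irf2bp2. They spanned 2.02 to 11.4 kb, and their folds ran from 2.78 at Irf2bp2 to 8.60 at Podxl.

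The 1 larger cluster held 12 peaks over 33.5 kb at chr6:47739602-47773139, between Gm40363 and Pdia4, at 85.0 to 118 kb from the 4.5S RNA gene Rn4.5s. Spacing between successive summits was 0.556 to 4.83 kb with a median of 3.72 kb. Fold enrichment was 1.97 to 5.80, and the deposited −log10 q-value was 2.43 to 43.9, against a median of 6.23 for all 368 peaks. Of the 368 peaks, 10 had a fold under 5 with a −log10 q-value above 12, and 7 of the 10 were in this cluster and 1 more lay beside Rn4.5s (near Gm40369, fold 3.29), while 8 of the other 2510 Foxc2 peaks had such values. With 20 kb added around the stretch from Rn4.5s to the end of the cluster, the region held 21 Foxc2 peaks, 14 of them Foxc2-only intergenic, and 1 Foxc1 peak, with a fold of 1.94. Of the 147 Foxc2-only peaks on chromosome 6, 40 (27.2%) were among the 368, these 12 included, against 15% of all 2453 Foxc2-only peaks. Without the 12, an alternative chosen after the data were seen, the median fold was 4.30 and the clustered share 17.4%.

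**Figure D4:**
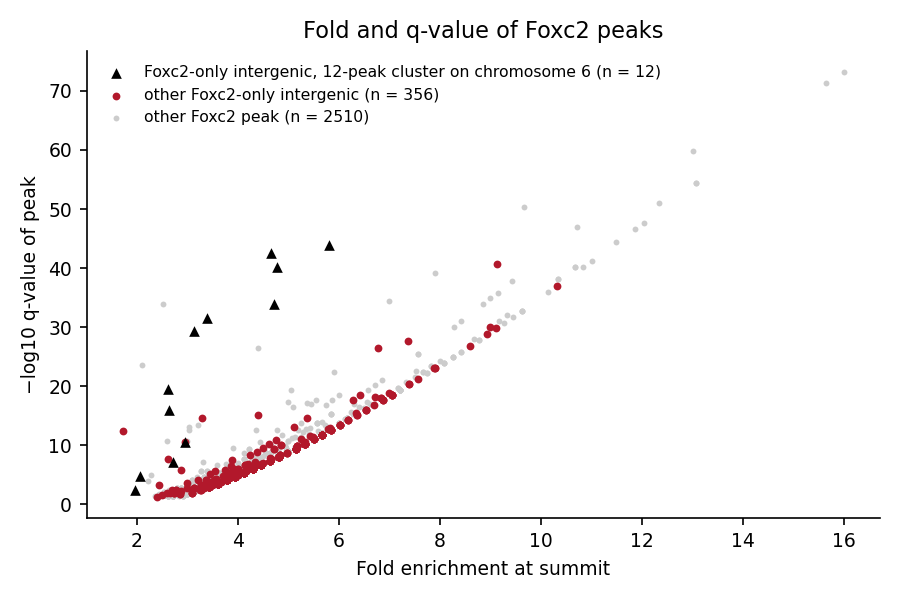
Fold enrichment at the summit against the −log10 q-value of each Foxc2 peak; black triangles are the 12 peaks of the chromosome 6 cluster, red points the other 356 Foxc2-only intergenic peaks and grey points the 2510 other Foxc2 peaks. Most of the triangles lie above the band of the other peaks, with −log10 q-values up to 43.9 at folds under 6.

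**Figure D5:**
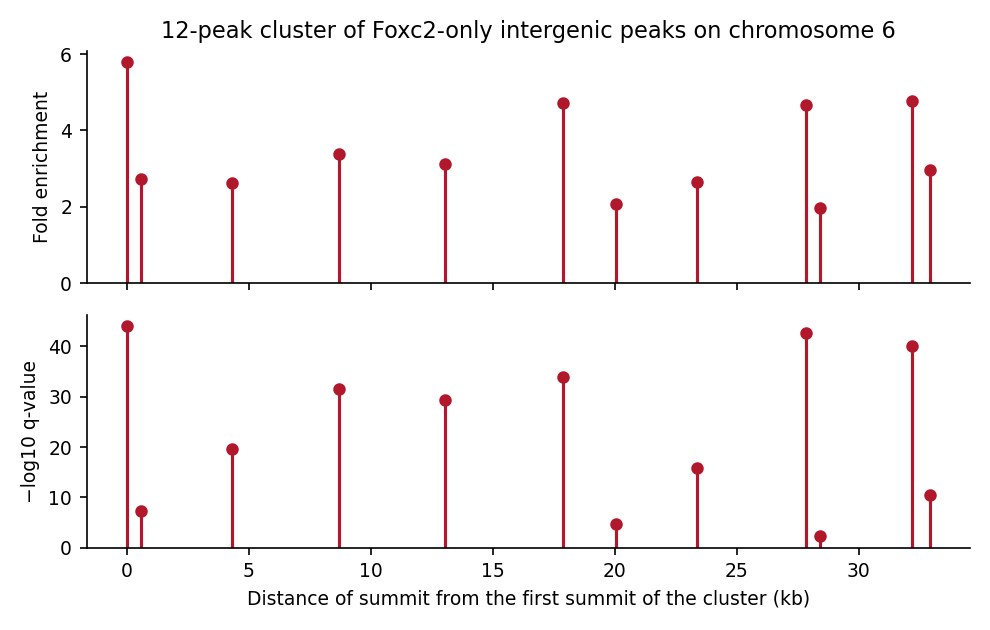
Fold enrichment (top) and −log10 q-value (bottom) of the 12 peaks of the chromosome 6 cluster, by distance of the summit from the first summit (kb). The first peak has the highest values, 5.80 and 43.9, and 3 pairs of summits lie under 1 kb apart.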

How the data were processed

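ChIP-seq was done on glomeruli with a Foxc2 and a Foxc1 antibody, 1 library each. The submitters' processing notes name Bowtie2, MACS2 and the build mm10, so the deposited lists are MACS2 peaks. Program versions, call settings, the control and pooling were not given in the sources used here. For each peak the authors deposited a score (not used), a fold enrichment ratio, the −log10 p-value (not used), the −log10 q-value and a summit offset from the peak start, in bases. Every Foxc2 peak had a q-value under 0.05. Depth is unknown, since peak lists hold no read counts, and a shallower library misses weaker sites.

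From the deposited lists, overlap was counted from 1 bp, and peaks on other sequences (3 Foxc2, 6 Foxc1) were left out. Summits were placed against the RefSeq table of GRCm38.p6, the assembly of mm10, with 21887 protein-coding genes and 27358 non-coding entries. A gene end is either end of the gene span. Promoter and miRNA sequences came from RefSeq tables of that build. A genome sequence was not used here, so other peaks have no sequence. Strand was taken from the promoter and miRNA tables where a gene had an entry.

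Samples were grouped by title. There are no replicates, so no test between conditions was made, and shares carry exact Clopper-Pearson 95% intervals. Overlap and distance code was tested on simulated peaks. Python 3.11.15, pandas 2.3.3, NumPy 2.4.6, SciPy 1.17.1 and matplotlib 3.10.9 were used. The peaks and the 14 gene lists were chosen with earlier results of these data known. Named are the 15 peaks of highest fold, the 8 farthest from genes, the 10 of highest fold at non-coding ends, clusters of 3 or more, up to 4 genes nearest to a peak per list, the peaks at the limits and up to 8 promoter windows; any others were chosen after their values were seen. Some genes named by this rule are counted but not reported here. Alternatives changed the q-value or fold limit, the gap to Foxc1, the gene-end limit, the summit, and the distances used.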

Additional observations from a re-analysis of the deposited data

How the results depend on the processing

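Alternatives were set for 7 results (the number of peaks, their median fold and 5 shares) and for the count of listed genes with a peak. Of 53 alternatives, 43 moved the value by less than its interval, or a count by less than 1.5 times, and 10 moved it more. With a −log10 q-value of 5 or more in both lists, 247 peaks were left, the median fold was 4.81 and the share with a Foxc1 peak within 10 kb was 16.2%. With a fold of 5 or more, 100 peaks were left with a median fold of 5.82, 12% within 1 kb of a non-coding end and 14% in clusters, and the share at non-coding ends over all Foxc2 peaks of that fold was 9.39%. A gene-end limit of 5 kb left 56.9% within 50 kb of a gene. Wider or narrower distances gave 40.2% for non-coding ends within 5 kb, 49.5% for Foxc1 peaks within 50 kb and 16.0% for clusters stitched within 5 kb. A wider distance cannot lower such a share and a narrower one cannot raise it. Likewise, a fold limit of 5 cannot leave a median fold under 5. A gene-end limit of 5 kb takes out only peaks within 50 kb of a gene, so it cannot raise that share. Why the remaining values moved was not tested. At 100 kb in place of 50 kb, 43 of 430 listed genes had a peak, against 899 of all 21887 protein-coding genes (4.11%). Without the 12-peak cluster on chromosome 6 (added after seeing the data) no result moved by more than its interval. No paired analysis was possible because each antibody has 1 library and no test was made. With 1 library per antibody and unknown depth, a missing Foxc1 peak may be an undetected one.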
